A study of Mus musculus with 6 samples.

Results

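The 10 genes described here encode cytokines of the interleukin-6 (IL-6) family, the receptor chains that bind them and an inhibitor of their signalling: Il6, Il11, Lif, Clcf1, Il6st, Lifr, Osmr, Il6ra, Il11ra1 and Socs3. They were taken by symbol from the deposited table of 21959 genes, and each matched 1 row. The set was chosen by the measured difference in read counts between the 2 groups of libraries, so the differences of its members are given below as descriptions, without p-values. Reads had been counted in 6 libraries of wild-type cells whose label is HL-1, an immortal atrial muscle line of the mouse. All cells underwent oxygen-glucose deprivation and reoxygenation (OGD/R), which imitates in culture the loss and return of blood flow, with 4 h in glucose-free medium under hypoxia and then 24 h in complete medium. The OGD/R group had 3 libraries of cells that received nothing further. The OGD/R with phillyrin group had 3 libraries of cells that also received phillyrin, a lignan glucoside of Forsythia, at 50 µg/mL for 8 h beforehand and for 16 h together with OGD/R. All 6 libraries therefore share the injury, and cells without OGD/R or given a solvent alone were not analysed here. The labels name 1 line and 1 batch and leave unsaid whether libraries of the same group stem from different cultures. P-values therefore measure library-to-library spread alone, and this may be technical. Below, ± is the SD over the 3 libraries of a group.

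Cytokines of the IL-6 family signal through receptor complexes built around a common chain, gp130, the product of Il6st. IL-6 and IL-11 first bind a private chain, encoded by Il6ra or Il11ra1, and then recruit a pair of gp130 molecules, whereas leukemia inhibitory factor (Lif) and cardiotrophin-like cytokine factor 1 (Clcf1) use gp130 paired with the LIF receptor chain, Lifr. Oncostatin M binds gp130 paired with its own chain, Osmr. The receptors activate Janus kinases (JAK), which phosphorylate the transcription factor STAT3, and STAT3 switches on Socs3, whose product binds gp130 and shuts the signal off. In the heart the family is known for its part in cardiomyocyte survival, hypertrophy and, for IL-11, fibrosis.

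Library totals lay between 14761317 and 22123648 counts. The defining transcripts of the labelled cell type were mostly absent. Of 14 cardiomyocyte markers, whose summed level was 149.6 to 151 CPM in OGD/R and 179 to 194 CPM with phillyrin, 11 were below 1 CPM (the usual count unit scaled to library size) in every library and 4, Myh6, Myh7, Actn2 and Mybpc3, had no count at all. The other 3 were present: Tnnt2, which made up most of that sum, rose from 116 ± 1.79 to 153 ± 9.34 CPM (n = 3; edgeR adjusted p = 5.45e-09), and the cardiac transcription factor genes Gata4 and Nkx2-5 stood at 27.6 to 32.6 CPM and 2.07 to 3.79 CPM. Of the skeletal muscle factors, Myod1 rose from 83.2 ± 2.18 to 97.2 ± 4.09 CPM (n = 3; edgeR adjusted p = 0.000455). Myf5 fell from 64.2 ± 3.65 to 52.5 ± 2.76 CPM (n = 3; edgeR adjusted p = 0.000197). Myog and Myf6 were below 1 CPM in every library and were not tested. The fusion gene Mymk, with 2 to 29 counts a library, fell from 1.38 ± 0.166 to 0.445 ± 0.309 CPM (n = 3; edgeR adjusted p = 0.00393). The 7 skeletal myoblast markers, of which 1 rose and 2 fell, summed to 823 to 834 CPM in OGD/R and 826 to 864 CPM with phillyrin. Most of this sum was Des, at 667 to 712 CPM, so it is not to be set against the cardiomyocyte sum. The name HL-1 is kept here only as the label. Of 8 macrophage markers, a cell type known for abundant Il6, 7 were below 1 CPM in every library and Adgre1, Itgam, Fcgr1 and Tyrobp had no count, and the summed level of the list was 2.32 to 3.19 CPM in OGD/R and 2.92 to 4.27 CPM with phillyrin. All 6 endothelial markers were below 1 CPM in every library. Of 8 fibroblast markers 3, Col1a2, Col3a1 and Pdgfra, fell with phillyrin and 0 rose, where 15.6% of all genes tested fell and 16.0% rose. Lum and Tcf21 had no count, and these and Thy1 were not tested. Col1a1 and Dcn did not pass, with log2 fold changes of -0.04 and 0.17 (edgeR adjusted p = 0.369 and 0.475). The summed level went from 2281 to 2322 CPM in OGD/R to 1797 to 1950 CPM with phillyrin. Most of that sum was Col3a1, at means of 1394 and 1100 CPM. The part of these marker levels in the results below was not tested. In RNA from whole cultures, fewer cells of a type and less RNA per cell cannot be told apart.

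Promoter sequences are shown first for the ligands Il6, Il11 and Lif and for Socs3, because these hold the motif matches discussed next. They are the 250 bases before the annotated start, from RefSeq on build GRCm38.p6, written 5′ to 3′ on the strand of the gene, and capitals mark bases in a match to any of the motifs searched. The gene coordinates further down are those of the deposited table, whose build is GRCm39 per the submitters' processing notes, and are not interchangeable with these.
Il6 (chr5:30012864-30013113, plus strand): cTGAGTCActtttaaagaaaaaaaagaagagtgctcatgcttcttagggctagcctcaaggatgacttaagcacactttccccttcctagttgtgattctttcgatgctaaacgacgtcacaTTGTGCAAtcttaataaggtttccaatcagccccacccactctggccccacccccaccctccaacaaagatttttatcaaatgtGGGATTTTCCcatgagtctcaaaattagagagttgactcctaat
Il11, second listed start (chr7:4778142-4778391, minus strand): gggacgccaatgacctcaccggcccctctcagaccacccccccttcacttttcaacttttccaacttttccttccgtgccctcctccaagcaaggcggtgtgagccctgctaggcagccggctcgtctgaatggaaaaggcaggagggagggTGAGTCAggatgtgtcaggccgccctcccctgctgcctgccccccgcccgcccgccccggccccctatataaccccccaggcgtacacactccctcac
Lif (chr11:4257318-4257567, plus strand): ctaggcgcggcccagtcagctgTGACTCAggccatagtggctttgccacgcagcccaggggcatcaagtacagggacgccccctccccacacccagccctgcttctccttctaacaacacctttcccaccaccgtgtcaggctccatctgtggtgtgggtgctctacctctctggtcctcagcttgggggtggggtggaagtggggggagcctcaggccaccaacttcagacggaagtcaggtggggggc
Socs3 (chr11:117969367-117969616, minus strand): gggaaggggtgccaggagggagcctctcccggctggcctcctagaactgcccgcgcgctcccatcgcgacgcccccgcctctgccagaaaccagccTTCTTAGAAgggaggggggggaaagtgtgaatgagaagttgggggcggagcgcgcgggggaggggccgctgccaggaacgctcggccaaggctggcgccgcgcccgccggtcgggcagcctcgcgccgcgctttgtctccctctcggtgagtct

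Of the 10 genes, 9 had a promoter entry, and the window searched ran from 250 bases before the start to 50 bases after it, on both strands. Il11, Lifr and Il11ra1 had 2 listed starts each. A gene was counted where any of its starts held a match, whereas the shares of all promoters are per promoter, so these figures are not strictly alike. The AP-1 motif TGANTCA, the recognition sequence of Fos and Jun dimers, was found in 4 of the 9 genes, Il6, Il11, Lif and Osmr, and in 7.81% of the 32851 promoters of the same length in the table. Counted from the annotated start as position 0, the match began at position -249 in Il6, -98 in Il11, -228 in Lif and 3 in Osmr. In Il11 only the second listed start held it. The NF-kB motif, of the factor that drives Il6 in inflammation, was found in Il6 alone among the 9, from position -44 to -35, and in 4.51% of all promoters. The C/EBP motif TTGCNNAA was likewise found in Il6 alone, from -128 to -121 on the opposite strand, and in 10.8% of all promoters. The STAT motif TTCNNNGAA was found in Socs3 alone, from -154 to -146, and in 8.30% of all promoters. The cyclic AMP response element TGACGTCA and the TATA box letters TATAAA were found in 0 of the 9 genes, and in 1.79% and 13.6% of all promoters. Only these exact letters were searched. Near variants, such as tatataa in the printed Il11 stretch and cgacgtca in that of Il6, were not counted. No match overlapped another motif in the windows printed. A match describes letters only and is no evidence that a factor was bound.

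The ligand transcripts also carried copies of ATTTA, the core of the AU-rich elements through which proteins such as the product of Zfp36 speed the decay of cytokine mRNA. In transcripts of GENCODE M21, the 427 bases after the stop codon of Il6 held 6 copies, or 14.1 per kb, a density above that of 99.7% of 19289 genes with at least 100 such bases. Il11 held 10 copies in 1194 bases (8.38 per kb, above 98.2% of genes) and Clcf1 4 in 922 bases (4.34 per kb, above 88.9%). The median over genes was 1.33 per kb. Lif, with 7 copies in 3180 bases, and Socs3, with 4 in 1474 bases, were above 66.2% and 73.7% of genes, and the receptor transcripts lay between 0 copies in Il11ra1 and 2.23 per kb in Osmr. The longer form ATTTATTTA was present in 2 of the 10 transcripts, Il11 with 3 copies and Clcf1 with 1, and in 6.07% of the 19289 genes. Overlapping copies of either form were counted separately, in these transcripts and over all genes. The first copy in each is shown in capitals with its flanks, at bases 41 to 65 after the stop codon in Il11 and bases 830 to 854 in Clcf1. In the Il11 stretch another copy overlaps the first and runs on into the lower-case bases.
Il11: cagatcttATTTATTTAtttatttt
Clcf1: gtattaatATTTATTTAtttggaga

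Within the family, Il6 and Il11 were higher with phillyrin, and Clcf1 and the private chain Il6ra were lower. The signal-carrying chains Il6st, Lifr and Osmr were higher by less than 1.2-fold, and Lif, Il11ra1 and Socs3 overlapped between the groups. All 10 genes had enough counts to enter the test over all genes. By edgeR's quasi-likelihood test with Benjamini-Hochberg adjustment over 11658 genes, 7 of the 10 lay past an adjusted p of 0.05, where 31.7% of all genes tested did. Of these, 5 were higher, against 16.0% of all genes, and 2 were lower, against 15.6%. The groups did not overlap for the same 7 members and for 43.1% of all genes tested. Because the members were chosen with this contrast in view, nothing is read from these counts. The median log2 fold change, always given as OGD/R with phillyrin minus OGD/R, was 0.19 over the 10 members and -0.01 over all genes tested. Scaled by library size only, 34.8% of the calls over all genes were higher, against 50.6% with the TMM factors used here, and the same 7 members lay past the threshold.

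**Figure D1:**
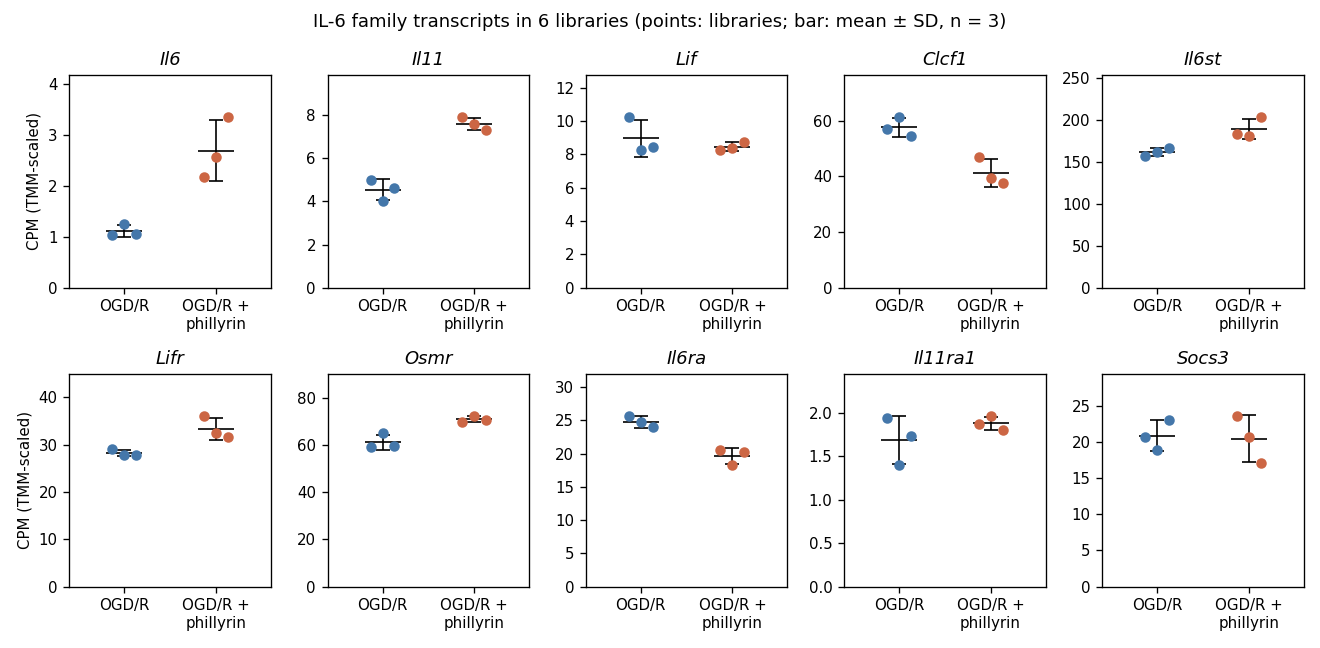
CPM (scaled by TMM factors, each axis from 0) of the 10 transcripts in the OGD/R libraries (blue) and the OGD/R with phillyrin libraries (orange). Points are libraries and bars are the mean ± SD (n = 3). The groups are apart for Il6, Il11, Clcf1, Il6st, Lifr, Osmr and Il6ra and overlap for Lif, Il11ra1 and Socs3.

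Il6 (ENSMUSG00000025746, chromosome 5, 30218112 to 30224979) encodes the founding cytokine of the family. It was scarce. The OGD/R libraries held 19, 26 and 20 counts, or 1.03, 1.25 and 1.05 CPM, and the phillyrin libraries 37, 56 and 48 counts, or 2.16, 2.56 and 3.34 CPM. Every phillyrin library stood above every OGD/R library, and phillyrin replicate 3 was the highest. The means were 1.11 ± 0.124 and 2.69 ± 0.598 CPM (n = 3), and the log2 fold change was 1.25 (SE 0.28), or 2.38-fold. Of the 11658 genes tested, 19 had a larger log2 fold change, a rank that partly restates how the set was chosen. Counting error alone is wide at this depth, since the exact 95% Poisson interval was 0.819 to 1.84 CPM for the highest OGD/R library and 1.52 to 2.98 CPM for the lowest phillyrin library, and these intervals overlap. The labels name no molecular identifiers to mark PCR copies, so such intervals cover counting error only. Across the 13 other settings of the test, the log2 fold change lay between 1.09 and 1.38.

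Il11 (ENSMUSG00000004371, chromosome 7, 4775372 to 4785858), the cytokine that signals through IL-11 receptor alpha, stood at 4.97, 4.00 and 4.63 CPM in OGD/R and at 7.90, 7.58 and 7.30 CPM with phillyrin. The groups were well apart, with means of 4.54 ± 0.492 and 7.60 ± 0.296 CPM (n = 3) and a log2 fold change of 0.75 (SE 0.15), or 1.68-fold. It rested on 83 to 166 counts a library. Il6 and Il11 were thus the members with the largest differences. Whether the sequence matches shown above bear on the differences of any member was not tested.

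Lif (ENSMUSG00000034394, chromosome 11, 4207557 to 4222514), the gene of leukemia inhibitory factor, showed no such difference. Its libraries stood at 10.2, 8.25 and 8.42 CPM in OGD/R and at 8.25, 8.36 and 8.77 CPM with phillyrin. The groups overlapped, with 1 OGD/R library above the rest, and the log2 fold change was -0.08 (SE 0.13), or 0.02 without OGD/R replicate 1.

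Clcf1 (ENSMUSG00000040663, chromosome 19, 4264292 to 4273544), whose product acts on cells bearing the ciliary neurotrophic factor receptor, was the most abundant ligand. It stood at 57.1, 61.2 and 54.6 CPM in OGD/R and at 47.0, 39.3 and 37.6 CPM with phillyrin. Every phillyrin library was below every OGD/R library, with means of 57.6 ± 3.33 and 41.3 ± 5.04 CPM (n = 3) and a log2 fold change of -0.48 (SE 0.07). The table lists a predicted gene, Gm45928, over it on the same strand, and how reads within both were assigned is not given in the sources used here.

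The 3 chains that carry the signal were higher with phillyrin by 1.16-fold to 1.18-fold. Il6st (ENSMUSG00000021756, chromosome 13, 112600604 to 112646620), encoding gp130, stood at 157, 163 and 167 CPM in OGD/R and at 184, 181 and 203 CPM with phillyrin, a log2 fold change of 0.22 (SE 0.04). Osmr (ENSMUSG00000022146, chromosome 15, 6843058 to 6904450), the oncostatin M receptor chain, stood at 59.4, 64.9 and 59.5 CPM and at 70.0, 72.3 and 70.7 CPM, a log2 fold change of 0.21 (SE 0.06). Lifr (ENSMUSG00000054263, chromosome 15, 7120095 to 7226970), the LIF receptor chain, stood at 29.0, 27.7 and 27.9 CPM and at 36.0, 32.4 and 31.6 CPM, a log2 fold change of 0.24 (SE 0.07). For each of these chains all phillyrin libraries were above all OGD/R libraries, by a margin that was small beside the level. Lifr lay highest in phillyrin replicate 1, and without that library it was no longer past the threshold over all genes, with a log2 fold change of 0.19.

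The 2 private chains differed from them. Il6ra (ENSMUSG00000027947, chromosome 3, 89771366 to 89820503), the chain that confers binding of IL-6, stood at 25.6, 24.7 and 23.9 CPM in OGD/R and at 20.5, 18.3 and 20.3 CPM with phillyrin. All phillyrin libraries were lower, with a log2 fold change of -0.33 (SE 0.08), so that the cytokine Il6 and its private chain went opposite ways. Il11ra1 (ENSMUSG00000073889, chromosome 4, 41699989 to 41769474), the chain for IL-11, was near the limit of what these libraries resolve, with 26 to 43 counts each. It stood at 1.95, 1.40 and 1.74 CPM and at 1.87, 1.96 and 1.81 CPM, the groups overlapped, and the log2 fold change was 0.16 (SE 0.27), from 0.04 without OGD/R replicate 2 to 0.27 without OGD/R replicate 1. Its listed span also covers Galt on the same strand and Arid3c, Ccl27a, Dctn3 and Rpp25l, among others, on the other, and a near-identical copy, Il11ra2, had 3 counts in all 6 libraries, so its reads are uncertain.

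Socs3 (ENSMUSG00000053113, chromosome 11, 117856905 to 117860873), the feedback inhibitor, stood at 20.7, 18.9 and 23.1 CPM in OGD/R and at 23.6, 20.7 and 17.0 CPM with phillyrin. The phillyrin libraries spanned the whole range of the OGD/R libraries, and phillyrin replicate 3 had the lowest Socs3. The log2 fold change was -0.02 (SE 0.10), and it turned to 0.06 when OGD/R replicate 3 was left out and to 0.09 when phillyrin replicate 3 was.

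Levels of different genes were compared per length, as deposited FPKM (unscaled CPM per kilobase of the length listed for each gene). How that length was derived is not given in the sources used here. It need not be the length of the transcript expressed, and the order between genes below depends on it. In OGD/R the order was Clcf1 at 15.4 ± 0.894, Il6st at 14.8 ± 0.389, Socs3 at 7.33 ± 0.740, Osmr at 5.13 ± 0.263, Il6ra at 2.91 ± 0.105, Lifr at 2.66 ± 0.0720, Il11 at 2.21 ± 0.243, Lif at 2.09 ± 0.259, Il6 at 0.465 ± 0.0517 and Il11ra1 at 0.385 ± 0.0632 FPKM (n = 3). Neighbours whose libraries overlapped in this order were Clcf1 and Il6st, Il11 and Lif, and Il6 and Il11ra1. With phillyrin Il6st led at 16.8 ± 0.931 FPKM and Clcf1 followed at 10.7 ± 1.38 FPKM, with no overlap between them. Il11, at 3.59 ± 0.171 FPKM, then stood above Lifr, at 3.05 ± 0.237 FPKM, and Il6ra, at 2.24 ± 0.130 FPKM, below which it had been in OGD/R. Il6, at 1.09 ± 0.232 FPKM, remained ninth of the 10, now apart from Il11ra1 at 0.414 ± 0.0204 FPKM. In this group the libraries of Socs3, at 6.97 ± 1.17 FPKM, overlapped those of Osmr, at 5.77 ± 0.118 FPKM, and those of no other neighbouring pair did.

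**Figure D2:**
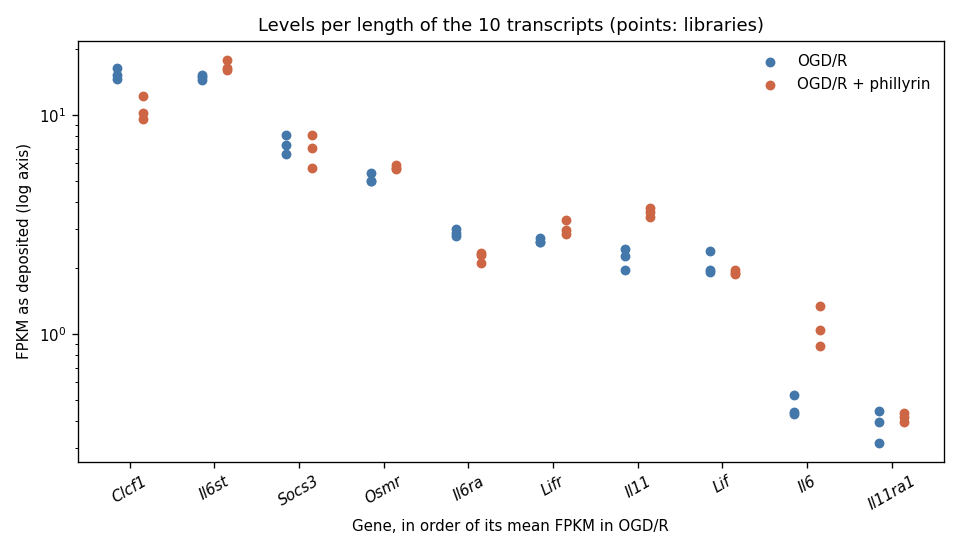
Deposited FPKM (log axis) of the 10 transcripts in each library, ordered by their mean in OGD/R, for OGD/R (blue) and OGD/R with phillyrin (orange). Clcf1 and Il6st lie together at about the same level in OGD/R and apart with phillyrin, and Il6 and Il11ra1 are the lowest in both groups.

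Ratios of 2 transcripts within a library do not depend on how libraries are scaled. The FPKM ratio of Il6st to Il6ra was 4.78, 5.12 and 5.42 in OGD/R and 7.00, 7.68 and 7.80 with phillyrin, so the transcript of the shared chain was in larger excess over that of the private IL-6 chain in every phillyrin library than in any OGD/R library. The ratio of Il6st to Osmr, by contrast, was 2.89 ± 0.161 in OGD/R and 2.91 ± 0.210 with phillyrin, and that of Il6st to Lifr was 5.58 ± 0.283 and 5.54 ± 0.657 (n = 3), each with overlapping groups. The ratio of Il6 to Il11 was 0.213 ± 0.0485 and 0.305 ± 0.0797 (n = 3) and overlapped as well. Among the ligands that use Lifr, the ratio of Clcf1 to Lif was 7.42 ± 1.04 and 5.60 ± 0.832 (n = 3), also with overlapping groups. These ratios restate the same libraries and are descriptions.

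**Figure D3:**
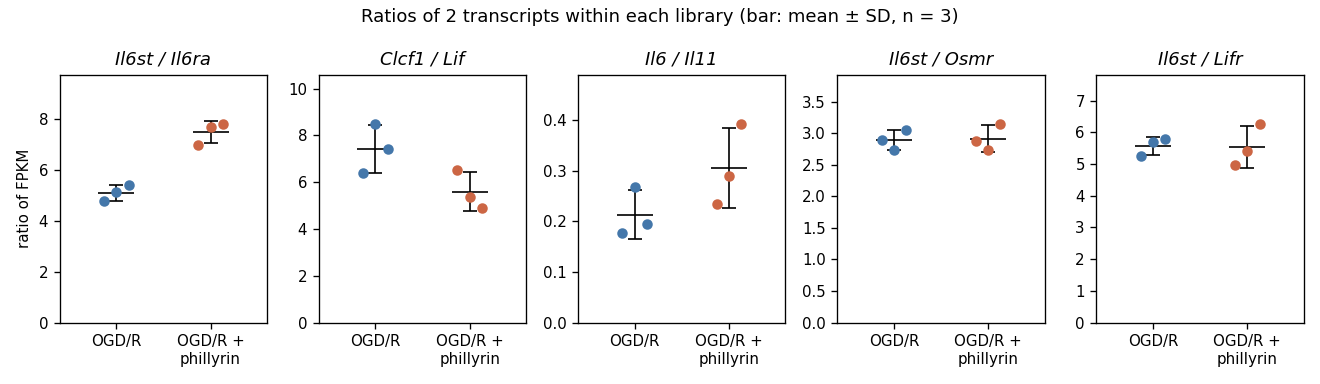
Ratios of deposited FPKM between pairs of transcripts within each library (each axis from 0), for OGD/R (blue) and OGD/R with phillyrin (orange). Points are libraries and bars are the mean ± SD (n = 3). The groups are apart for Il6st to Il6ra and overlap for the other pairs.

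The remaining genes of the pathway were taken from 8 lists with 79 genes, of which 64 had enough counts to be tested. Of these 64, 10 rose and 8 fell with phillyrin (15.6% and 12.5%, against 16.0% and 15.6% of all genes; edgeR adjusted p under 0.05), 28.1% in all, near the 31.7% of all genes. Their median log2 fold change was -0.03. With library size as the only scaling, 9 rose and 14 fell.

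Among the other ligands, ciliary neurotrophic factor, Cntf, at 0.667 ± 0.127 and 0.796 ± 0.368 CPM, and cardiotrophin 1, Ctf1, at 1.87 ± 0.338 and 1.32 ± 0.177 CPM (n = 3), did not pass the test (edgeR adjusted p = 0.648 and 0.203). Gm44505 overlaps Cntf on the same strand, and the related Ctf2 overlaps Ctf1 on the other, from base 127317278 to 127317364 of chromosome 7. Reads in the shared stretches are uncertain. Oncostatin M, Osm, the ligand of the Osmr chain, had 0 counts, which allows up to 0.0269 CPM over the 111513800 counts of all libraries, and so had Ebi3, Il31 and the receptor chain Il31ra. None of the 4 other receptor chains, Cntfr, Il27ra, Il31ra and Il11ra2, had enough counts to be tested, and Cntfr, through which Clcf1 acts, had 12 counts in all 6 libraries together.

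Of the 9 kinases and STATs, 1 rose and 2 fell. Stat3, the main factor activated by gp130, rose from 88.5, 89.3 and 90.6 CPM in OGD/R to 104, 115 and 104 CPM with phillyrin, higher by 0.27 on the log2 scale with SE 0.05 (edgeR adjusted p = 3.60e-05). Stat5a, which overlaps Stat3 on the other strand, fell from 14.2 ± 0.506 to 10.9 ± 0.606 CPM (n = 3; -0.39 on the log2 scale, edgeR adjusted p = 0.00462). The listed spans of the 2 genes share only bases 100775924 to 100775995 of chromosome 11. Without a stated strand setting, reads there cannot be told apart. The kinase Tyk2 fell from 24.0 ± 1.38 to 19.3 ± 2.08 CPM (n = 3; -0.32 on the log2 scale, edgeR adjusted p = 0.00452), a call that was lost without phillyrin replicate 2 (edgeR adjusted p = 0.0733). Jak1, the kinase that gp130 relies on most, stood at 228 ± 4.72 and 230.0 ± 10.4 CPM (n = 3; 0.01 on the log2 scale, SE 0.04). Raver2 overlaps Jak1 on the other strand. Jak2, at -0.04 (SE 0.06) on the log2 scale, did not pass.

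gp130 also signals through the phosphatase SHP2 and adaptor proteins toward the ERK pathway, and 2 of 8 genes of that arm rose and 0 fell. Ptpn11, encoding SHP2, which binds the same docking site on gp130 as the SOCS3 protein, rose from 291 ± 7.16 to 327 ± 8.99 CPM (n = 3; 0.17 on the log2 scale, edgeR adjusted p = 0.000318). On the other strand Arhgef33 overlaps the exchange factor gene Sos1, which rose from 114 ± 4.83 to 141 ± 4.40 CPM (n = 3; 0.31 on the log2 scale, edgeR adjusted p = 8.93e-07).

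Of 14 other inhibitors, 2 rose and 2 fell. Socs2, a suppressor best known from growth hormone signalling, rose from 112 ± 3.17 to 159.6 ± 3.48 CPM (n = 3), or 0.51 on the log2 scale with SE 0.04 (edgeR adjusted p = 3.03e-12), and Socs7 rose with a log2 fold change of 0.26 (edgeR adjusted p = 0.000155). Pias3, an inhibitor of STAT3, which Nudt17 overlaps on the other strand, fell from 43.9 ± 2.99 to 32.8 ± 0.742 CPM (n = 3), or -0.42 on the log2 scale with SE 0.07 (edgeR adjusted p = 6.35e-06). Socs5 fell with a log2 fold change of -0.15 (edgeR adjusted p = 0.00274). Socs1, the closest relative of Socs3 in function, stood at 3.31 ± 0.270 and 2.59 ± 0.372 CPM (n = 3) and did not pass (log2 fold change -0.34, SE 0.22).

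Adam10 and Adam17, the proteases that release a soluble form of the IL-6 receptor, stood at 208 ± 2.33 and 109.9 ± 4.43 CPM in OGD/R (n = 3). Of 4 genes of receptor shedding, Adam10 rose (log2 fold change 0.13, edgeR adjusted p = 0.00593), a call that was lost with scaling by library size only (edgeR adjusted p = 0.0562), and 0 fell. Adam17, which Iah1 overlaps on the other strand, had a log2 fold change of -0.04 (SE 0.05).

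Of 23 genes known as STAT3 targets, 17 were tested, of which 3 rose and 2 fell, and their median was -0.01 on the log2 scale. The survival gene Mcl1 rose from 293 ± 6.96 to 327 ± 12.0 CPM, Birc5, which encodes survivin and is also a gene of mitosis, from 107 ± 2.00 to 135 ± 1.69 CPM, and the angiogenic factor Vegfa from 492 ± 8.21 to 565 ± 11.2 CPM (n = 3), with edgeR adjusted p of 0.000841, 1.01e-07 and 1.05e-05. Myc fell from 190.2 ± 6.06 to 171 ± 5.72 CPM (n = 3; edgeR adjusted p = 0.00260). The kinase gene Pim3 had a log2 fold change of -0.21 (edgeR adjusted p = 0.0249), which dropped to -0.11 without phillyrin replicate 3 (0.230), and its call was also lost without any one of the OGD/R libraries or phillyrin replicate 1 (0.0513 to 0.0730) and with DESeq2 (adjusted p = 0.0555). The targets that STAT3 induces in inflamed tissue, Lcn2, Saa3, Hp, Serpina3n, Icam1 and Bcl3, had 1 to 57 counts each over all 6 libraries and were not tested.

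Of 9 genes that control Il6 transcription or the decay of its mRNA, 0 rose and 2 fell, and their median was -0.15 on the log2 scale. Nfkb1, a subunit of NF-kB, fell from 177 ± 1.58 to 159.8 ± 0.929 CPM, and Zfp36l2, a relative of Zfp36 that binds AU-rich elements, from 519 ± 11.3 to 464 ± 10.4 CPM (n = 3), with log2 fold changes of -0.15 and -0.16 (edgeR adjusted p = 0.00247 and 0.000275). Nfkbiz, a coactivator of Il6, and Zc3h12a, a nuclease that degrades Il6 mRNA, did not pass, at 0.01 (SE 0.07) and -0.05 (SE 0.12) on the log2 scale. These last 2 were named after their values were seen.

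**Figure D4:**
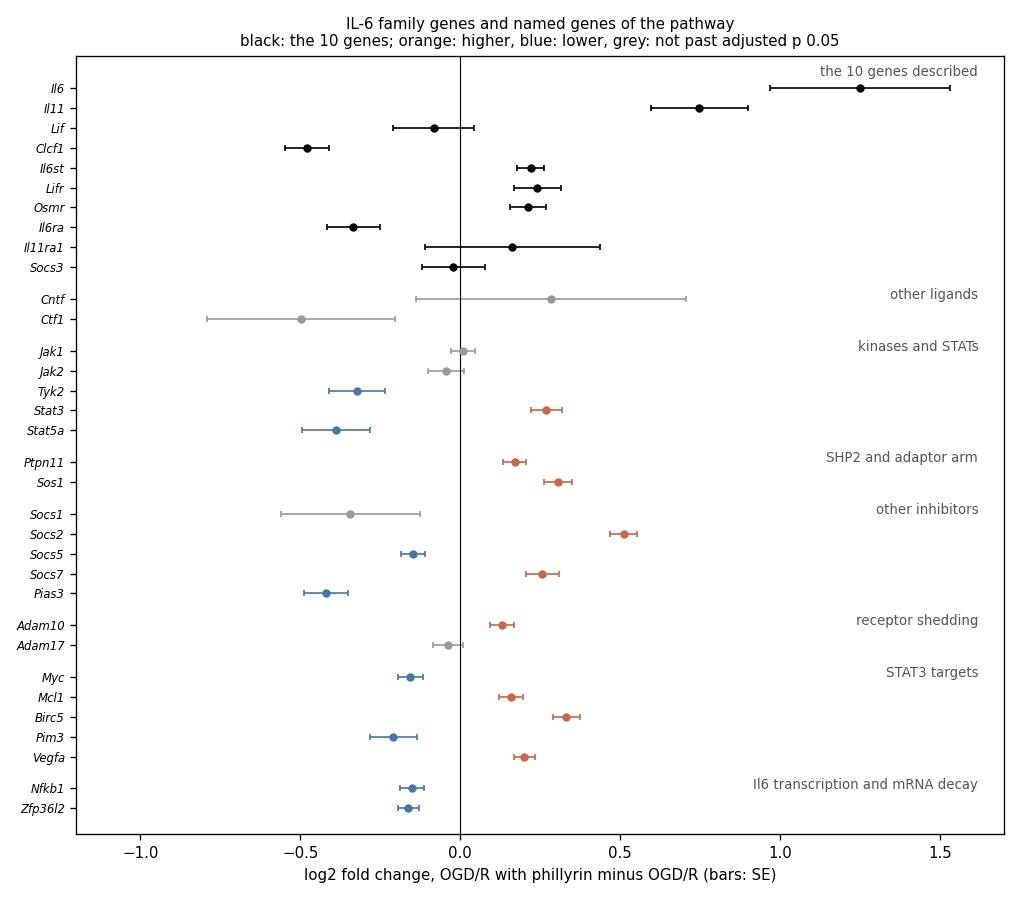
Log2 fold change (OGD/R with phillyrin minus OGD/R, bars are the SE) of the 10 genes (black) and 23 of the tested genes of the pathway by list, coloured orange where higher, blue where lower and grey where the adjusted p of edgeR was not under 0.05. Il6 and Il11 lie farthest to the right, and none of the pathway genes shown reaches the value of Il11.

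Il6 was compared over the 6 libraries with 9759 tested genes whose log2 CPM averaged 2 or more. Predicted genes, clones and entries without a gene name had been left out of these. The 5 transcripts whose log2 CPM followed that of Il6 most closely included Lmo4, a LIM domain cofactor gene, Wwc2, Psme3, a proteasome activator gene, and Rab6a, a Golgi trafficking gene. Pearson's r with Il6 was between 0.994 and 0.996. The differences between groups were far smaller than that of Il6, with log2 fold changes from 0.15 in Psme3 to 0.30 in Lmo4. With 2 groups of 3 libraries, a high r reflects mainly the shared step between groups and the shared libraries, and it is a description only. Cldn22 overlaps Wwc2 and Mrpl48 overlaps Rab6a on the other strand.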

How the data were processed

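Per the labels, mRNA was enriched with poly-T beads and read from both ends over 150 bases. The submitters' processing notes name Trimmomatic 0.39, HISAT2 2.2.1, featureCounts 2.0.3, DESeq2 1.34.0 and build GRCm39. How strand and multi-mapping reads were treated is not given in the sources used here. The deposited table holds a raw read count and an FPKM per gene and library, per the file headers. The FPKM deposited by the authors equalled count over length and library total (largest relative difference 2.43e-07). Sample titles tied columns to samples, since 1 column name stands in the descriptions of all 3 phillyrin libraries.

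Counts were filtered with filterByExpr, scaled by TMM and tested with edgeR 4.0.16 (quasi-likelihood, robust; limma 3.58.1, R 4.3.3), two-sided, with Benjamini-Hochberg adjustment over 11658 genes and a threshold of 0.05. The script was tested on simulated data. CPM used TMM-scaled library sizes, and log2 CPM a prior count of 2. Alternatives included DESeq2 1.42.0 and limma-voom, scaling by RLE or by library size only, no filter, a minimum mean of 1 CPM, each library left out, and the replicate number as a block. Members and lists were chosen with earlier results of these data known. Of the pathway lists, the text names 12 fixed genes and up to 6 past the threshold per list, and the genes closest to Il6 in log2 CPM among the first 5. Some genes that this rule names are not reported here. Replicates of a group differed beyond sampling noise (chi-square per degree of freedom 2.04 to 5.32). A count of 0 is given an upper limit of 3 counts.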

Additional observations from a re-analysis of the deposited data

How the results depend on the processing

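Under all 13 alternatives, the log2 fold change of Il6, Il11, Clcf1, Il6st, Lifr, Osmr, Il6ra and Il11ra1 kept its sign and moved by less than 1 SD between libraries, while the sign differed once for Lif and 2 times for Socs3, both near 0. Between 6 and 7 members lay past the threshold, the exception being Lifr without phillyrin replicate 1. Of the pathway genes, 17 to 20 did with 1 library left out, and with scaling by library size only 14 fell in place of 8, with Arid5a, Bcl2l1, Pias1, Pias4, Pik3r1 and Zfp36l1 added, while the median of all genes moved from -0.01 to -0.06. The replicate numbers are shared by the groups but were not taken as pairs. Deviations of same-numbered libraries correlated at 0.00278 to 0.00561, and those of differently numbered libraries at -0.00459 to 0.00126, all close to 0. In each instance 6 of 6 libraries correlated best with their own number. Deviations within a group sum to 0, so these matches are not independent, and nothing is read from them. With the replicate block, 3709 genes were called in place of 3694, with the same 7 members and the same 18 pathway genes. Depth limits Il6 and Il11ra1 most, with 19 to 56 and 26 to 43 counts a library.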
